A study of Mus musculus with 6 samples.

Results

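Viperin (Rsad2), its chromosomal neighbour Cmpk2, the tetratricopeptide proteins Ifit1, Ifit2 and Ifit3, and Ifi44, Rtp4 and Xaf1 are antiviral genes that interferons induce. They were followed through a comparison of haematopoietic stem cells (HSCs) from mice labelled as lacking Irgm1 with HSCs from mice labelled wild-type. The set was fixed by name. Every probe set to which the platform table gave exactly 1 of the 8 symbols was taken, which gave 12 of the 45101 probe sets on the array, for 7 of 18194 named genes. Rsad2 had 3 probe sets, Cmpk2, Rtp4 and Xaf1 had 2 each, and Ifit1, Ifit2 and Ifit3 had 1 each. No probe set carried the symbol Ifi44 alone, so Ifi44 has no expression values here. It enters only the promoter search and the count of neighbouring genes.

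Each of 6 Affymetrix arrays was hybridised with biotin-labelled RNA from sorted HSCs, and the values are log2 expression values per probe set. The first group, labelled Lrg47_HSC, held 3 arrays from mutant mice labelled Lrg-47-/- (the older name of Irgm1). The second, labelled WT_HSC, held 3 arrays from wild-type mice. All mice were C57BL/6, 8 to 12 weeks old and free of specific pathogens, and no treatment was given to either group. The stem cells were sorted from whole bone marrow as the Hoechst side population with Sca-1, c-kit and lineage staining. The sources used here do not give the deleted part of Irgm1 or the number of mice behind an array. Nothing in the labels says that arrays of one group came from separate animals, so p-values measure only the spread between these arrays, which may be technical.

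Type I interferons bind the receptor of Ifnar1 and Ifnar2, and the kinases Jak1 and Tyk2 then activate the transcription factor complex ISGF3, which binds the interferon-stimulated response element (ISRE) in promoters of antiviral genes. Interferon gamma acts through another receptor and the GAS element, and the induced sets overlap. Viperin is a radical SAM enzyme that converts CTP into a chain-terminating analogue, and Cmpk2 is a mitochondrial nucleotide kinase. Ifit1 binds viral RNA whose cap lacks a methyl group of the host type, Ifit3 binds other Ifit proteins, and Ifit2 has been linked to cell death. Rtp4 is a chaperone of membrane receptors, and Xaf1 binds the apoptosis inhibitor Xiap. Irgm1 is an interferon-induced GTPase.

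The bases upstream of these genes are shown first, because the ISRE lies in promoters of antiviral genes. Several of the genes differed together between the groups, and binding by ISGF3 was not measured. RefSeq promoter windows (build GRCm38.p6) were held for 7 of the 8 genes (8 windows), with none for Rtp4, and the 250 bases before each annotated start were searched on both strands. The core letters of the ISRE, GAAA and GAAA with 2 bases of any kind between them (TTTC and TTTC on the other strand), occurred in the windows of 3 genes: Rsad2, Ifit1 and Ifit3. Of all 32851 windows of this length, 2.98% held it. The window of Cmpk2 is given beside them because Cmpk2 lies next to Rsad2 with no annotated gene between and is transcribed away from it. The windows are chr12:26456453-26456702 on the minus strand, chr12:26468965-26469214 on the plus strand, chr19:34640639-34640888 on the plus strand and chr19:34583279-34583528 on the plus strand. Each is written 5′ to 3′ along the gene, and capitals mark matches to the core.
Rsad2: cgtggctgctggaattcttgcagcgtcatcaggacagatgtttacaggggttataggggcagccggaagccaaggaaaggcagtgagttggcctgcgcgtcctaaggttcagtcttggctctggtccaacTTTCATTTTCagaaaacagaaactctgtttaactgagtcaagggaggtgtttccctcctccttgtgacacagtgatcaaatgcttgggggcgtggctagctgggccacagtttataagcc
Cmpk2: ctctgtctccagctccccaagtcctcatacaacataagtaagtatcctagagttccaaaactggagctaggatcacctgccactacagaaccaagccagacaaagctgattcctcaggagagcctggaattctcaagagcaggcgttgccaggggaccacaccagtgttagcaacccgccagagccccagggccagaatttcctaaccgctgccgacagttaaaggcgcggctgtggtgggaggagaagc
Ifit1: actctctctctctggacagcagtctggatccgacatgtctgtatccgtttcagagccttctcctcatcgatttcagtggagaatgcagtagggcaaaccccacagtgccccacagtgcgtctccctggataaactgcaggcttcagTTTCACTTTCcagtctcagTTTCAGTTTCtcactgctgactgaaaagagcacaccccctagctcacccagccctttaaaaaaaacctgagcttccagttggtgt
Ifit3: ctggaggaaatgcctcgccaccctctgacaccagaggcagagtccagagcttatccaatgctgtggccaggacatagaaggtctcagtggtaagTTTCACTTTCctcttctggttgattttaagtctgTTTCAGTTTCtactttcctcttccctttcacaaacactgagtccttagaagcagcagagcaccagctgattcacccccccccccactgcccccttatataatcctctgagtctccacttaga

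Rsad2 held 1 match, 111 to 120 bases before its start. Ifit1 held 2, at 76 to 85 and 95 to 104 bases, and Ifit3 held 2, at 113 to 122 and 147 to 156 bases. The matches of Ifit1 and Ifit3 were spelled alike, TTTCACTTTC and TTTCAGTTTC, in the same order. The search was repeated with a core 1 base shorter, AAANNGAAA, chosen after the windows had been read and contained in every match above. It occurred in 9.37% of all windows, and among these genes also in Ifi44 and Xaf1, where it read TTTCAGTTT 47 to 55 and 9 to 17 bases before the start. Cmpk2 and both windows of Ifit2 held neither form. The GAS core, TTCNNNGAA, was found in 1 window, of Ifit2 (TTCCTGGAA, 233 to 241 bases before the start), and in 7.02% of all windows. A match is a string of letters, not a measured binding site, and its absence from a window says nothing about the factor.

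The genotype and the cells were checked before the results. The single Irgm1 probe set read 7.68, 8.58 and 7.84 on the arrays labelled Lrg47 (replicates 1, 2 and 3) and 8.39, 8.57 and 8.36 on the wild-type arrays, which left the groups overlapping (difference -0.41, SE 0.25, limma adjusted p = 0.475). Replicate 2 alone made the overlap. Without it the difference was -0.68 (SE 0.19, adjusted p = 0.248), and without replicate 1 labelled Lrg47 it was -0.23 (adjusted p = 0.782). Since a probe set outside the deleted part checks nothing, groups are named by their labels. Of 10 HSC markers 8 were measured, and 0 were called, near the shares over all genes tested (1.08% higher and 0.954% lower). Their mean log2 levels overlapped, at 10.12 to 10.42 on the arrays labelled Lrg47 and 10.33 to 10.39 on the wild-type arrays. Their summed linear level, in which the brightest markers weigh most, was lower on the arrays labelled Lrg47. It was 19374 to 21787 against 23294 to 26150, with no overlap. By gene, Procr, Hlf and Kit lay lower without overlap (-0.37, -0.48 and -0.82) and Slamf1 higher (1.43). Of all probe sets tested 11.5% lay higher without overlap, and the share lying lower was not counted. Procr, an endothelial protein C receptor found on HSCs, and the transcription factor Meis1 were the highest, at 13.01 and 12.12 on average on the arrays labelled Lrg47. The part of the HSC markers in the results was not tested. Some T and NK cell markers stood higher on the arrays labelled Lrg47. Of 10 measured of 12 listed, 7 were tested and 3 rose, against 1.08% of all genes tested called higher. These were Thy1 (3.63), Klrd1 (3.97) and Gzmb (3.69). Not called were Nkg7 (2.61, limma adjusted p = 0.0532), Cd2 (1.99, 0.283), Cd3e (0.77, 0.464) and Cd247 (0.19, 0.829), the last with overlap. Cd3d, Cd3g and Ncr1 were not tested. The summed linear level of that list was 1442 to 4722 on the arrays labelled Lrg47 and 241 to 476 on the wild-type arrays. That sum was highest on replicate 3 of the former, and the brightest marker, Nkg7, weighs most in it. The NK receptor Ncr1 lay at or below the highest bacterial control (3.18), the level taken here as background, on all 6 arrays. Gzmb read 3.87, 3.00 and 3.64 on the wild-type arrays, so replicate 2 lay below that level. It lay above the array median on 4 arrays, and passed the filter only through the arrays labelled Lrg47. The 5′ probe set of the 18S rRNA control also stood apart, at 11.20 to 12.47 against 9.31 to 11.15. Array medians were 3.67 to 3.73, and the actin 3′ minus 5′ gap, a sign of RNA coverage, overlapped between the groups.

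Viperin and the Ifit genes stood far higher on the arrays labelled Lrg47. Of the 7 measured genes 5 (Rsad2, Cmpk2, Ifit1, Ifit2 and Ifit3) rose by 1.77 to 4.10 on the log2 scale, and Rtp4 and Xaf1 were not called. In probe sets, 11 of 12 were tested, 7 rose and 0 fell, where 0.664% of all 22580 tested probe sets were called higher and 0.722% lower. The arrays of the 2 groups did not overlap for 9 of the 11, all with the arrays labelled Lrg47 above, against 11.5% of all probe sets tested. At an adjusted p under 0.01 the 3 probe sets of Rsad2 were called, against 0.111% of all higher. The median difference of the 11 was 2.02, and that of all probe sets tested was 0.01. The calls are from limma across all tested probe sets, with Benjamini-Hochberg adjustment and a threshold of 0.05. In sorted cells measured in bulk, a change in the share of a cell type and a change in RNA per cell cannot be told apart.

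**Figure D1:**
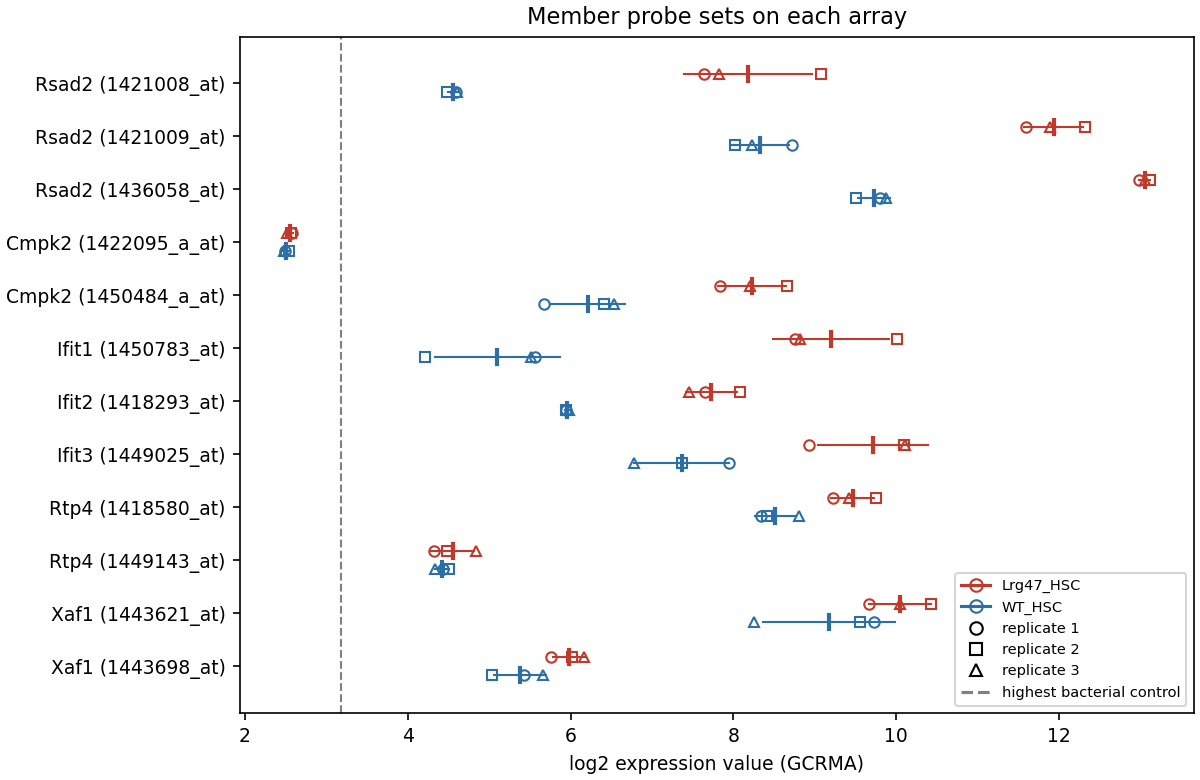
Log2 expression values (x axis) of the 12 probe sets (y axis) on each array, arrays labelled Lrg47_HSC in red and WT_HSC in blue, with marks for the replicate number, a thick tick at the mean and a line of 1 SD on either side (n = 3). Every red mark lies to the right of every blue one for Rsad2, Ifit1, Ifit2, Ifit3, the brighter probe sets of Cmpk2 and Rtp4 and, narrowly, the dimmer of Xaf1. The dimmer Cmpk2 probe set lies below the highest bacterial control (dashed line, 3.18).

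Viperin was measured by 3 probe sets, with differences of 3.33 to 3.62 at very different levels. The brightest, 1436058_at, read 12.98, 13.12 and 13.06 on the arrays labelled Lrg47 and 9.79, 9.51 and 9.87 on the wild-type arrays. The groups were 3.10 apart at their nearest, while the arrays labelled Lrg47 spanned only 0.14. The difference was 3.33 (SE 0.13, adjusted p = 0.000214), with the second smallest p of the 22580 tested probe sets. Probe set 1421009_at read 11.59, 12.32 and 11.89 against 8.72, 8.01 and 8.23, a difference of 3.61 (SE 0.25, adjusted p = 0.00157). The dimmest, 1421008_at, read 7.64, 9.07 and 7.82 against 4.59, 4.48 and 4.60, a difference of 3.62 (SE 0.36, adjusted p = 0.00783). The 95% confidence intervals of the 3 ran from 3.01 to 3.64, 3.04 to 4.19 and 2.77 to 4.47. Pairs of them differed by at most 0.30 in this difference (exact 2-sided permutation p of 0.3 to 1, adjusted 0.75 to 1 over the 5 probe set pairs compared). With 3 against 3 arrays no p under 0.1 is possible, so these p-values do not show that the probe sets acted alike. Without wild-type replicate 2, 1421008_at lost the call (difference 3.58, adjusted p = 0.0536).

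Cmpk2, the neighbour of Rsad2, rose less. Its probe set 1450484_a_at read 7.83, 8.66 and 8.20 on the arrays labelled Lrg47 and 5.68, 6.41 and 6.53 on the wild-type arrays. The groups were 1.30 apart at their nearest, and the difference was 2.02 (SE 0.30, 4.06-fold, adjusted p = 0.0313). The 95% interval, 1.31 to 2.73, lay below those of all 3 Rsad2 probe sets, although the difference between the genes was not tested. The call was lost when any 1 array was left out, with differences of 1.76 (without wild-type replicate 1) to 2.22 (without replicate 1 labelled Lrg47) and adjusted p of up to 0.113. The other probe set, 1422095_a_at, read 2.51 to 2.57 on the arrays labelled Lrg47 and 2.48 to 2.54 on the wild-type arrays. It lay below the highest bacterial control on all 6 arrays, was not tested, and carries no fold. The nearest tested genes beyond the pair, the ubiquitin ligase gene Rnf144a and the ribosomal protein gene Rps7, differed by 0.38 (adjusted p = 0.447) and -0.05 (adjusted p = 0.777). Between Rnf144a and Rsad2 lay 2 annotated genes, and between Cmpk2 and Rps7 lay 22.

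Among the Ifit genes, Ifit1 had the largest difference. Its probe set read 8.76, 10.01 and 8.82 on the arrays labelled Lrg47 and 5.57, 4.21 and 5.52 on the wild-type arrays. Replicate 2 was the highest of the first group and replicate 2 the lowest of the other, and still the groups were 3.19 apart at their nearest. The difference was 4.10 (SE 0.47, 95% interval 3.01 to 5.19, 17.1-fold, adjusted p = 0.0118), with only 1 tested probe set above it in size upwards. With 1 array left out it ranged from 3.65 to 4.33 and stayed past the threshold each time (adjusted p of up to 0.0481).

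Ifit2 read 7.65, 8.08 and 7.46 against 5.94, 5.94 and 5.98. The wild-type arrays lay within 0.04 of each other, and the groups were 1.48 apart. The difference was 1.77 (SE 0.20, 95% interval 1.30 to 2.25, 3.42-fold, adjusted p = 0.0122), an interval that lay below that of Ifit1. Ifit2 lost the call without replicate 1 labelled Lrg47 (1.81, adjusted p = 0.0532) and without wild-type replicate 1 or 2 (1.77 and 1.77, adjusted p = 0.0685 and 0.0782).

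Ifit3 read 8.93, 10.09 and 10.11 against 7.94, 7.37 and 6.78. Both groups spanned over 1 log2 unit, and the gap between them was 0.99. The difference was 2.34 (SE 0.40, 95% interval 1.41 to 3.28, 5.08-fold, adjusted p = 0.0453), close to the threshold. The call held without replicate 1 labelled Lrg47 and was lost without any other 1 array, with differences of 2.05 to 2.63 and adjusted p of 0.0829 to 0.147.

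**Figure D2:**
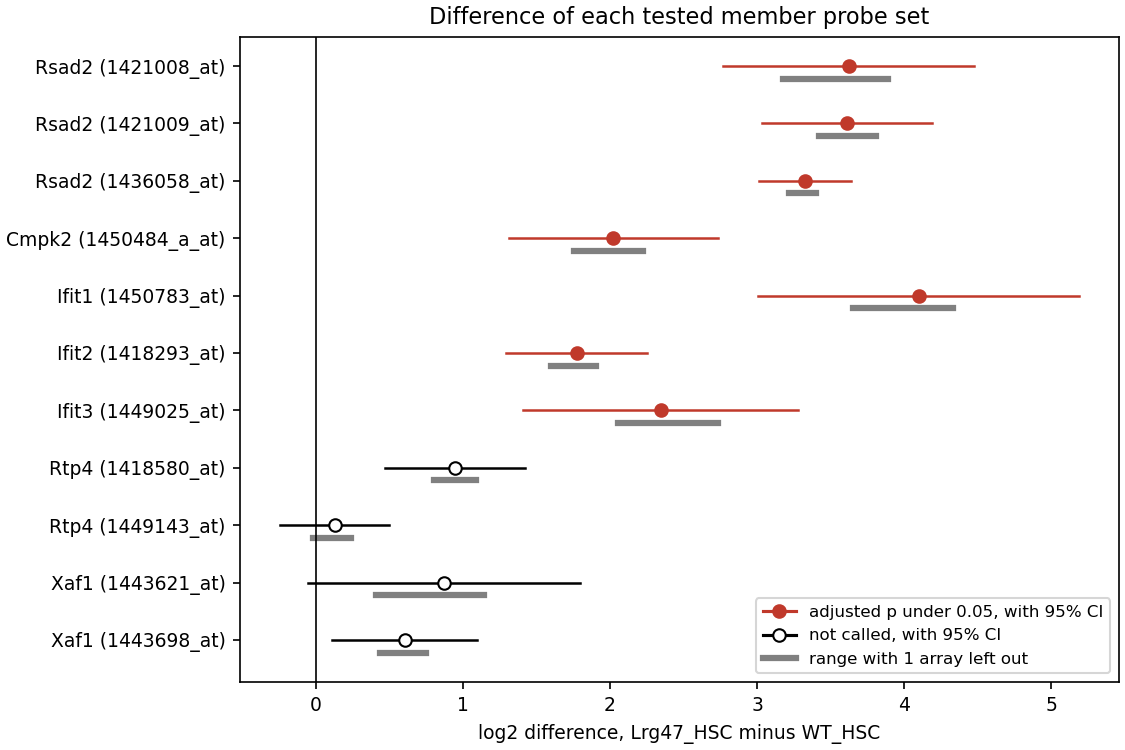
Log2 difference between the groups (x axis) for the 11 tested probe sets (y axis), with 95% confidence intervals from limma, filled red where the adjusted p was under 0.05, and a grey bar for the range obtained with each array left out in turn. The 7 called probe sets lie between 1.77 and 4.10, and the Rtp4 and Xaf1 probe sets lie between 0.13 and 0.95.

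Rtp4 and Xaf1 did not pass. The brighter Rtp4 probe set, 1418580_at, read 9.22, 9.74 and 9.42 on the arrays labelled Lrg47 and 8.33, 8.41 and 8.80 on the wild-type arrays. The groups did not overlap, with 0.42 between them, and the difference was 0.95 (SE 0.20, 95% interval 0.47 to 1.42, adjusted p = 0.0843). The dimmer one, 1449143_at, read 4.32, 4.49 and 4.84 against 4.43, 4.50 and 4.33, with overlap, and differed by 0.13 (SE 0.16, adjusted p = 0.74). These 2 probe sets of Rtp4 thus differed by 0.82 in their difference between groups, with no overlap between arrays (exact 2-sided permutation p = 0.1, the smallest that 3 against 3 arrays allow, and 0.5 adjusted over the 5 pairs).

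The brighter Xaf1 probe set, 1443621_at, read 9.66, 10.42 and 10.05 on the arrays labelled Lrg47 and 9.72, 9.55 and 8.25 on the wild-type arrays. Wild-type replicate 3 stood low, and replicate 1 of both groups overlapped. The difference was 0.87 (SE 0.40, 95% interval -0.06 to 1.80, adjusted p = 0.331), and without wild-type replicate 3 it was 0.41. Xaf1 probe set 1443698_at read 5.76, 6.02 and 6.16 against 5.43, 5.04 and 5.67. Its groups did not overlap but lay only 0.10 apart, with a difference of 0.60 (SE 0.21, adjusted p = 0.228). Xiap, which Xaf1 binds, was at -0.17 (SE 0.13, adjusted p = 0.549).

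The count of called members moved with the arrays used. Of the 7 called probe sets, 5 were called without any single array labelled Lrg47 or without wild-type replicate 3. Without wild-type replicate 1 there were 4, the 3 of Rsad2 and that of Ifit1, and leaving out wild-type replicate 2 gave 3. Over all probe sets tested, 0.102% and 0.0753% were called higher in those 2 fits, against 0.664% with all arrays. The share was 0.199%, 0.235% and 0.611% without replicates 1, 2 and 3 labelled Lrg47 in turn. It was 0.341% without wild-type replicate 3. By the probe set with the highest mean, 5 of the 7 genes were called with all arrays (of all genes tested, 1.08% were called higher and 0.954% lower). There were 3 without any 1 array labelled Lrg47 or without wild-type replicate 3, and 2 when wild-type replicate 1 or 2 was left out, namely Rsad2 and Ifit1.

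The arrays labelled Lrg47 held much the same order across the set. Replicate 2 was the highest of them for 8 of the 11 tested probe sets and replicate 1 the lowest for 10. Averaged over the 7 genes, replicates 1, 2 and 3 lay -0.34, 0.39 and -0.04 from their group mean. The 10 T and NK cell markers lay at -0.48, -0.80 and 1.28 on the same arrays, so replicate 2 was lowest for them and replicate 3 highest. Replicate 1 was lowest also for 36 other interferon-stimulated effectors (-0.18, 0.10 and 0.08) and for all genes tested (-0.06, -0.004 and 0.07). The 9 of those effectors called higher were highest on replicate 3 (-0.18, -0.0009 and 0.18). Without replicate 3 labelled Lrg47 the difference was 3.32 for Rsad2 (1436058_at), 4.29 for Ifit1, 1.91 for Ifit2, 2.14 for Ifit3 and 2.04 for Cmpk2. The part of the T and NK cell markers that stood above wild type on all 3 arrays labelled Lrg47, and that of the 18S control, in these differences was not tested. On the wild-type arrays the 7 genes averaged 0.13, -0.09 and -0.04, and no array was highest or lowest for more than 6 of the 11 probe sets.

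**Figure D3:**
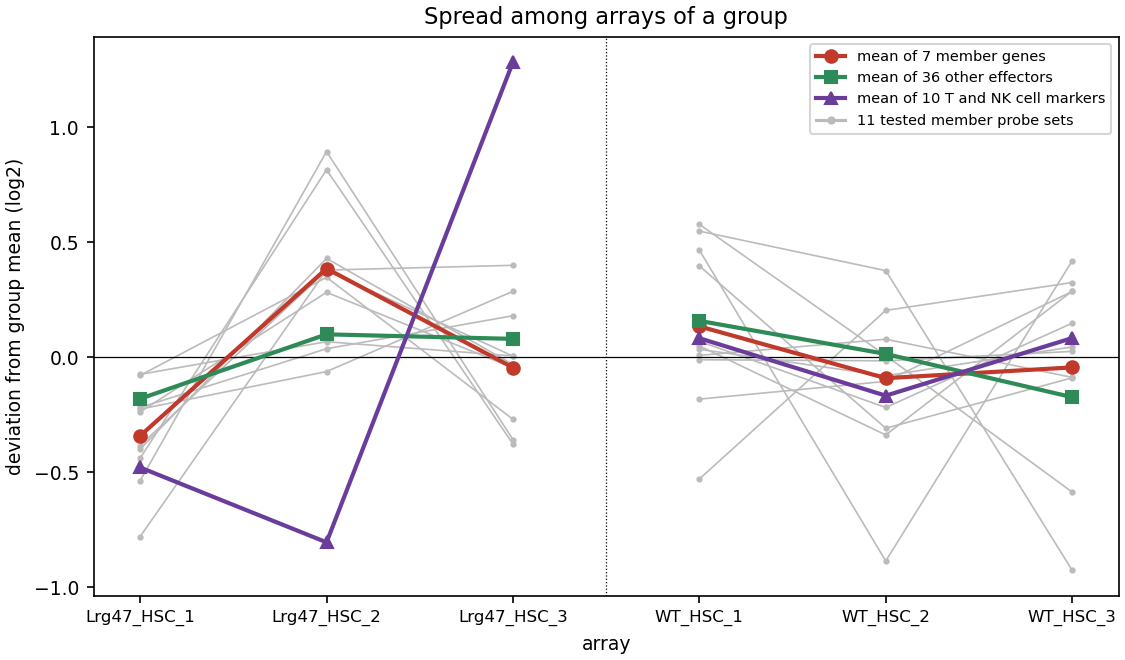
Deviation from the group mean in log2 units (y axis) on each array (x axis), with a thin grey line for each of the 11 tested probe sets and thick lines for the mean of the 7 genes, of 36 other interferon-stimulated effectors and of 10 T and NK cell markers, the lines only joining values of one kind. Replicate 2 labelled Lrg47 is the highest of its group for the 7 genes (0.39) and the lowest for the T and NK cell markers (-0.80).

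Genes of the upstream pathway were counted next. Of 7 listed genes of the type I interferon receptor, its kinases and ISGF3, 6 were tested and 0 were called (median difference 0.05). With 1.08% of all genes called higher and 0.954% lower, 0 of 6 is near the background. The receptor chain Ifnar1 was at 0.70 (adjusted p = 0.291), Jak1 at -0.33 (0.362), the other receptor chain Ifnar2 at -0.14 (0.62) and Tyk2 at 0.29 (0.699). Of 6 interferon regulatory factors 1 rose, Irf7, which amplifies the type I response and is itself induced. Irf7 read 9.32, 9.92 and 9.76 on the arrays labelled Lrg47 and 7.95, 7.71 and 6.73 on the wild-type arrays. The groups did not overlap, and the difference was 2.20 (SE 0.33, adjusted p = 0.0313). Irf7 was called without wild-type replicate 3 and lost the call without any other 1 array. Irf8, Irf3 and Irf5 were at -0.68, 0.19 and 0.09, with adjusted p of 0.257 or more.

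The interferon genes were near background or not called. Of 7 measured of 9 listed, 5 did not reach the filter: Ifnb1, Ifna1, Ifna2, Ifna4 and Ifna5. Ifnb1 read 2.24 to 2.29 on the arrays labelled Lrg47 and 2.21 to 2.26 on the wild-type arrays, below the highest bacterial control. Ifng, the product of T and NK cells, read 6.28, 5.53 and 8.54 against 3.97, 2.79 and 3.98. Its groups did not overlap, with the same replicate highest as for the T and NK cell markers, and it was not called (3.21, SE 0.73, adjusted p = 0.1). Under array weights, 1 of the 2 tested interferon genes was called higher. That fit called 1.78% of all probe sets tested higher, against 0.664% in the main fit.

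Of 36 tested other interferon-stimulated effectors, 9 rose and 0 fell (25% against 1.08% of all genes tested), and their median difference was 0.63. The smallest p belonged to the nuclear protein gene Phf11d (3.66, SE 0.21, adjusted p = 0.00089), Ifi27l2a (2.79), the Isg15 protease Usp18 (2.98) and the oligoadenylate synthetase-like Oasl1 (2.92). Of 13 interferon-gamma-leaning targets 4 rose and 0 fell, with a median of 0.82: the chemokines Cxcl10 (3.88), Cxcl9 (3.09) and Cxcl11 (2.45), and the immunoproteasome subunit Psmb9 (0.82). Cxcl11 read 3.51, 3.10 and 3.04 on the wild-type arrays. These values lay at or near background, and it passed the filter only through the arrays labelled Lrg47. Of 4 feedback inhibitors only Usp18, also counted above, was called, and Ptpn2, Socs3 and Ptpn6 were at 0.23, -0.23 and -0.02. With 1 array left out the effectors called numbered 3 to 7, lowest without wild-type replicate 2, and the interferon-gamma-leaning targets 2 (without any wild-type array or without replicate 1 labelled Lrg47) to 3. These lists were drawn up with results of these arrays known, so their direction is no independent evidence.

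**Figure D4:**
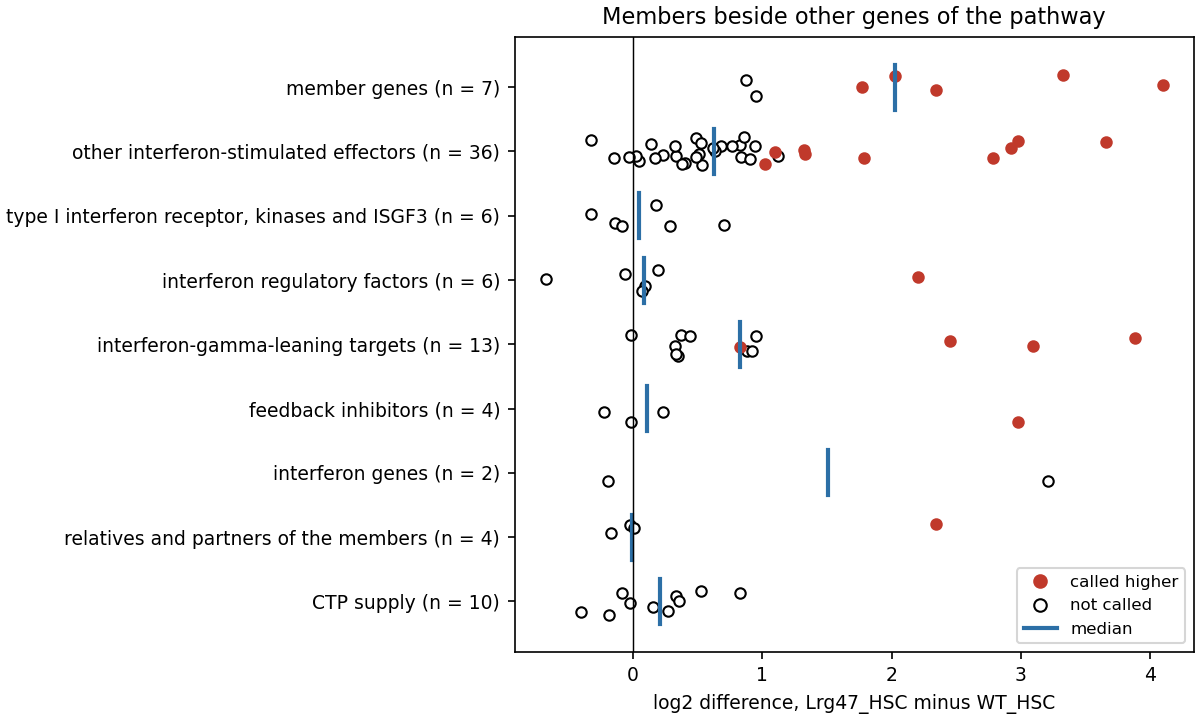
Log2 difference between the groups (x axis) for the 7 genes and for 8 lists of related genes (y axis, with the number tested), 1 point per gene (the brightest tested probe set), filled red where called higher, with the median of each list as a blue line. The 7 genes have a median of 2.02, the 36 other effectors 0.63 and the 6 receptor, kinase and ISGF3 genes 0.05.

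Of 4 tested relatives and partners of the set 1 rose, where 1.08% of all genes tested were called higher and 0.954% lower. Ifit1bl1, an Ifit1-like gene of the same cluster, read 5.93, 7.35 and 7.48 on the arrays labelled Lrg47 and 4.53, 4.52 and 4.67 on the wild-type arrays, and rose by 2.35 (SE 0.39, adjusted p = 0.0409). It was called without replicate 1 labelled Lrg47 and lost the call without any other 1 array. Ifit1bl2, which lies between it and Ifit1, was at 0.01 (SE 0.13, adjusted p = 0.984), with a level of 4.74 in both groups. Cmpk1, the cytosolic counterpart of Cmpk2, was at -0.03 (SE 0.20, adjusted p = 0.959). Genes of the Ifit family share sequence, so signal from a relative's transcript on a probe set cannot be told apart here. Of 10 genes of CTP supply, the substrate pool of viperin, 0 were called, which is near those shares over all genes tested. The smallest p belonged to the pyrimidine synthesis enzymes Cad (0.82, adjusted p = 0.227), Umps (-0.40, 0.301) and Dhodh (0.53, 0.355) and the CTP synthase Ctps (0.33, 0.358).

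Genes that flank the set on the chromosome mostly did not pass. The 3 nearest tested genes on either side of each of the 8 genes, in RefSeq order, were 32 genes outside the set. Of these, 3 rose and 0 fell (9.38% against 1.08% of all genes tested), namely Ifit1bl1, Id2 and Rfc4. The transcription regulator Id2 (1.54, SE 0.25, adjusted p = 0.038) lay on the side of Rsad2, with 16 annotated genes between. The replication factor Rfc4 (1.28, SE 0.19, adjusted p = 0.028) lay on the side of Rtp4, with 10 between. The other 29 lay between -0.65 and 0.71. In the Ifit cluster the outer neighbours were the transporter gene Slc16a12 (-0.35, adjusted p = 0.537) and the lysosomal lipase Lipa (-0.47, adjusted p = 0.367), so the called genes there ran from Ifit2 to Ifit1 in RefSeq order with Ifit1bl2 among them not called.

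The genes most like the set were found by the root mean square difference over the 6 arrays between a gene's centred log2 values and the mean centred profile of the 7 genes. The nearest were Aspa (0.20), Clca3a1 (0.23), the cyclin Ccna2 (0.23), Gdf3 (0.28) and the thymidine kinase Tk1 (0.32). Aspa, an enzyme of acetylaspartate breakdown, read 4.78, 6.06 and 5.29 on the arrays labelled Lrg47 and 3.19, 3.30 and 2.94 on the wild-type arrays. Its wild-type values were close to the highest bacterial control, with replicate 3 below it, and Aspa passed the filter only through the arrays labelled Lrg47. The 7 genes themselves lay 0.27 (Ifit2) to 1.05 (Ifit1) from their own mean profile.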

How the data were processed

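The authors deposited 1 log2 expression value per probe set and array. Per the submitters' processing notes these are GCRMA values, corrected for background by probe sequence, normalised between arrays and summarised over probes, which leaves probe sets without signal in a low, narrow band. The sources used here do not name its version or settings, and the values themselves showed the log2 scale. RNA had been amplified linearly by T7 transcription, per the labels' protocols, which favours 3′ ends.

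The values were used as they stood. Probe sets above the median of an array in at least 3 of 6 arrays, without Affymetrix controls, were tested (22580, for 10374 genes) with limma 3.58.1 in R 4.3.3 (lmFit, eBayes with trend, 2-sided, Benjamini-Hochberg over all tested, threshold 0.05). Differences are Lrg47_HSC minus WT_HSC on the log2 scale. Of 45101 probe sets, 34958 had 1 symbol in the platform table, 932 several and 9211 none. Of the first, 34754 matched RefSeq by gene ID. A gene on a list was represented by its brightest tested probe set. Probe sets of a gene were compared with an exact permutation test (scipy 1.17.1, Python 3.11.15). Simulated data with known changes were used to check the fit. With 3 arrays per group, their number limits the precision.

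The set and the gene lists were chosen with earlier results of these data known. The genes named are every member of the set, up to 4 genes of each list with the smallest p, called markers or the 2 highest, Irgm1, tested neighbours (3 on each side) and the 5 most alike profiles; of these, some are given as counts. The alternatives were other filters, quantile normalisation, median centring, eBayes without trend or robust, weights per array, a block for the replicate number, each array left out, a stricter threshold and another choice of probe set. The pseudocounts planned for linear values did not apply.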

Additional observations from a re-analysis of the deposited data

How the results depend on the processing

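Over 15 alternatives, the 11 tested probe sets gave 163 values. Of these, 135 kept their direction and side of the threshold, 25 lost the call, 2 gained it (Rtp4 1418580_at, under array weights and under a 70th-percentile filter) and 1 changed sign: Rtp4 1449143_at was at -0.016 without replicate 3 labelled Lrg47, and leaving out other arrays gave up to 0.24. Array weights and the 70th-percentile filter called 1.78% and 1.41% of all probe sets tested higher, against 0.664% in the main fit. Rsad2 1436058_at and 1421009_at were called in all 15. With no filter on dim probe sets, or a filter at the 25th percentile, 3 of the 7 genes were called in place of 5, and 9 genes of the related lists in place of 15. Of all probe sets tested, 0.109% and 0.184% were called higher in these 2 fits, against 0.664% in the main fit. With the replicate number as a block, 3 probe sets were called in place of 7 (those of Rsad2), 1 gene in place of 5, and 5 genes of the related lists in place of 15. In the block fit 0.12% of all probe sets tested were called higher. The labels share replicate numbers, and deviations of same-numbered arrays correlated at -0.11, -0.02 and -0.28. Those of differently numbered arrays correlated at -0.20 to 0.24. As deviations from means of only 3 arrays, these values cannot decide whether the numbers pair the arrays. At an adjusted p under 0.01, 3 probe sets were called. With 1 array left out, 3 to 5 probe sets, 2 to 3 genes and 5 to 10 genes of the related lists were called. A fit with 1 array left out rests on fewer arrays, and the cause of the lost calls was not tested. Probe sets near background, such as 1422095_a_at, cannot show a difference.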

Other observations

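Genes whose upstream window held the ISRE core can be set beside those whose window did not, as a description with no test. Of 268 tested genes with that core (GAAA, any 2 bases, GAAA) in the 250 bases before a RefSeq start, 13 were called higher (4.85%) and 2 lower (0.746%). Of 8196 tested genes whose windows lacked it, 73 were higher (0.891%) and 73 lower (0.891%). Besides Rsad2, Ifit1 and Ifit3, 10 of 265 such genes were called higher (3.77%). In order of size these were Cxcl10 (3.88), Ifit1bl1 (2.35), Ifi213 (2.34), Clca3a1 (1.88), Cdca3 (1.63), E2f8 (1.40), Pold2 (1.35), Oas1a (1.33), Gbp3 (1.09) and Slfn8 (1.02). The median difference was 0.04 with the core and 0.00 without. Genes with the GAS core TTCNNNGAA were called higher in 6 of 598 cases (1.0%) and those without it in 80 of 7866 (1.02%).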
